A study of Rattus norvegicus with 12 samples.

Results

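Fib/Peri, the cluster that the study named for fibroblasts and pericytes, held 5001 of the 217132 nuclei that were sequenced one by one from rat kidney, which is 2.30% of them. Its members are all nuclei whose low-level cluster in the authors' table is Fib/Peri. Of these, 4997 also carried the high-level name Stroma, and the remaining 4 were placed with the proximal tubule in the high-level annotation. Stroma holds 1 further cluster, SMC/Peri, named for smooth muscle cells and pericytes, with 811 nuclei. The kidneys came from 12 male rats in 4 groups of 3. Lean rats were untreated ZSF1 lean animals. Obese rats were ZSF1 obese animals, a model of diabetic kidney disease, given vehicle for 12 weeks from an age of 13 to 14 weeks. Obese+sGCact rats were obese animals given BAY 1101042 (runcaciguat), an activator of soluble guanylate cyclase (sGC), at 3 mg/kg 2 times per day over the same weeks. Obese+sGCstim rats received the sGC stimulator BAY 1165747 at 3 mg/kg 1 time per day. All 4 groups carry the same strain label, ZSF1-LeprfaLeprcp/Crl, and leptin receptor genotype and vehicle dosing cannot be told apart between Lean and Obese, since the lean rats received no vehicle. Of 6 lean rats, and of 10 in each of the obese groups, 3 per group were sequenced.

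Fibroblasts and pericytes fill the space between the tubules and the capillaries of the kidney. Pericytes wrap the capillaries and regulate their tone, and fibroblasts make the collagen of the interstitial matrix and are the main matrix producers in renal fibrosis. Both express the platelet-derived growth factor receptor beta (Pdgfrb), and fibroblasts also express the collagen chain Col1a2. sGC is the receptor for nitric oxide. It makes cyclic GMP, and it is known to be present in renal interstitial and vascular mural cells, so these cells are among those that an sGC drug can reach directly.

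Counts per gene were not analysed here, so the name of the cluster could not be checked against Pdgfrb or Col1a2, and no gene has a value below. The values that could be described are the number of members in each rat, their UMIs (unique molecular identifiers, a count of RNA molecules), their expressed genes, the share of UMIs on mitochondrial genes, the cell-cycle scores and phase calls of the authors, and their place in the 2-dimensional map of all nuclei. The rats held 10488 to 43484 nuclei and 11898496 to 49272672 UMIs in all. Members per rat ran from 163 in RK7_4 to 655 in RK61_4, so every rat had enough for a median. Among the members, 2 cell barcodes occurred in more than 1 rat. Each rat is 1 replicate, and the spread between rats includes everything that differed between their libraries. No source used here names a batch for a rat. RK9_4 (Obese) stood apart in its number of nuclei, and 92.1% of them were proximal tubule, compared with 32.6% to 75.8% in the other 11 rats.

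The share of Fib/Peri among all nuclei was highest in the lean rats and lower but scattered in the vehicle-treated obese rats. In the lean rats it was 3.51% in RK1_4, 3.23% in RK3_4 and 2.94% in RK5_4. In the obese rats it was 1.54% in RK7_4, 1.20% in RK9_4 and 3.08% in RK16_4. The groups overlapped through RK16_4, which lay inside the lean range, while the 95% Wilson intervals of RK7_4 (1.33% to 1.80%) and RK9_4 (1.10% to 1.30%) lay below every lean interval. Such intervals cover counting error only. The group means were 3.23% ± 0.284 for Lean and 1.94% ± 1.00 for Obese (SD, n = 3). The difference was -0.60 in log odds (SE 0.42), and limma across the 25 clusters gave an adjusted p of 0.389, so it did not pass the threshold of 0.05. In that contrast 3 of 25 clusters passed (12%). Without RK16_4 the difference was -0.88 and the adjusted p was 0.036, so this rat decided the call. In that fit 9 of 25 clusters passed, compared with 3 of 25 when it was kept.

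With the drugs the shares lay within the range of the vehicle-treated rats. With sGCact they were 2.69% in RK43_4, 1.90% in RK45_4 and 2.36% in RK46_4, a mean of 2.32% ± 0.398 (SD, n = 3). With sGCstim they were 1.72% in RK57_4, 1.98% in RK58_4 and 2.81% in RK61_4, a mean of 2.17% ± 0.573 (SD, n = 3). The range of the 3 vehicle-treated rats held all 6 treated rats. In log odds, sGCact minus vehicle was 0.26 (95% interval -0.65 to 1.16, limma adjusted p = 0.627), sGCstim minus vehicle was 0.17 (-0.73 to 1.08, adjusted p = 0.90) and sGCact minus sGCstim was 0.08 (-0.82 to 0.98, adjusted p = 0.964). These intervals leave room for a change in either direction. In these 3 contrasts limma called 0 of 25 clusters each (0%), with 0 below an unadjusted p of 0.05, and edgeR called 0 as well.

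**Figure D1:**
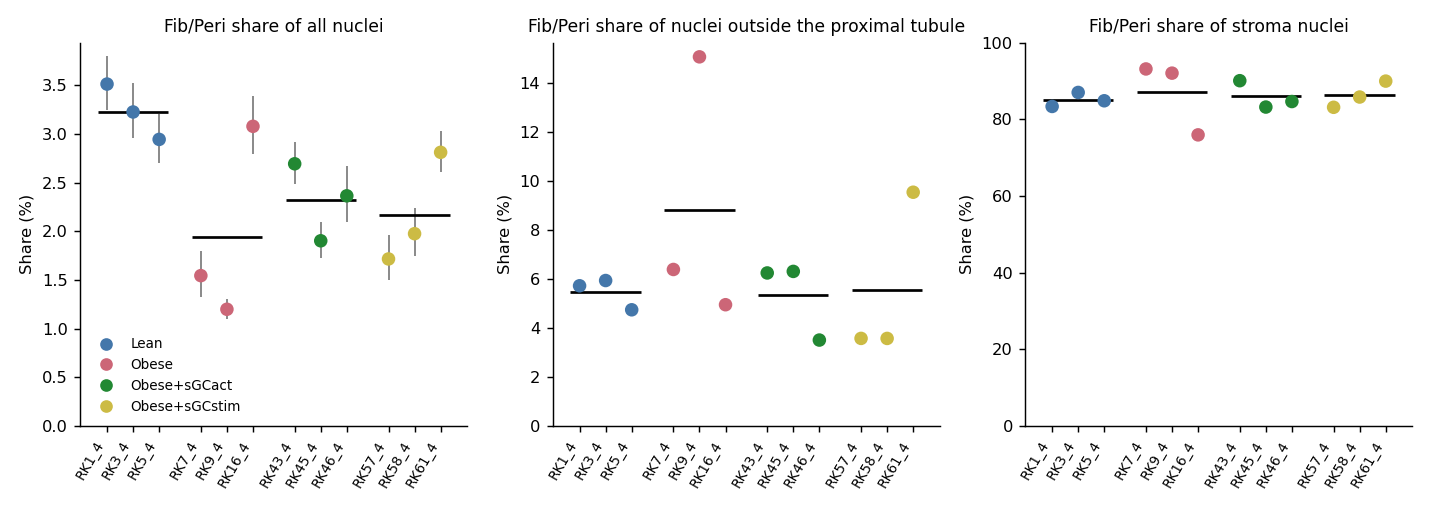
Fib/Peri nuclei of each rat as a percentage of all nuclei (left, with 95% Wilson intervals), of nuclei outside the proximal tubule (middle) and of stroma nuclei (right). Points are rats, coloured by group, and black lines are group means. RK7_4 and RK9_4 are lowest on the left, and RK9_4 is highest in the middle at 15.1%.

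Which nuclei the members were divided by changed the order of the groups. The proximal tubule reabsorbs most of the filtrate. It made up 40.8% ± 4.28 of the nuclei in Lean, 68.6% ± 27.8 in Obese, 53.1% ± 18.9 in Obese+sGCact and 55.8% ± 13.3 in Obese+sGCstim (SD, n = 3). Among nuclei outside the proximal tubule, Fib/Peri was 5.72%, 5.94% and 4.74% in the lean rats and 6.39%, 15.1% and 4.95% in RK7_4, RK9_4 and RK16_4. The obese rats were then higher than the lean rats in 7 of 9 pairs, compared with 1 of 9 pairs for the share of all nuclei. In log odds the difference became 0.40 in favour of Obese (limma adjusted p = 0.522). Centring each rat on its mean log count over clusters turned it as well, to 0.15 (adjusted p = 0.798). No drug contrast passed on either scale. Fewer Fib/Peri nuclei and more proximal tubule nuclei therefore cannot be told apart in shares of all nuclei.

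Within the stroma, Fib/Peri made up between 83.1% and 93.1% of the nuclei in 11 of 12 rats. The lean values were 83.4%, 87.0% and 84.8%. The vehicle-treated obese values were 93.1% in RK7_4, 92.0% in RK9_4 and 75.9% in RK16_4. The treated rats ran from 83.1% to 90.1%. RK16_4, with 404 Fib/Peri and 128 SMC/Peri nuclei, had the most SMC/Peri nuclei of all 12 rats, and RK7_4 had the fewest, with 12. The Obese minus Lean difference was 1.98 percentage points (exact two-sided permutation test, p = 0.9), and the drug contrasts were -1.07 for sGCact minus vehicle (exact p = 0.8) and -0.736 for sGCstim minus vehicle (exact p = 0.9). With 3 rats against 3 such a test cannot give a p below 0.1.

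Across the 12 rats the Fib/Peri share was higher where the shares of SMC/Peri and endothelial nuclei were higher. The log odds of the Fib/Peri share had a Pearson r of 0.833 with those of SMC/Peri (permutation p = 0.00051, adjusted over 7 relations 0.00297, Spearman rho 0.776, permutation p = 0.00431, adjusted 0.0151). With the log odds of endothelial nuclei r was 0.830 (permutation p = 0.00085, adjusted 0.00297, rho 0.839, permutation p = 0.001, adjusted 0.007). With the proximal tubule share r was -0.717 (permutation p = 0.00922, adjusted 0.0215), while rho, at -0.615, did not pass after adjustment (permutation p = 0.0372, adjusted 0.0652). All of these shares are parts of 1 total in each rat, so they are tied to each other by construction. Each relation was weaker without the 2 rats farthest from the median of the other measure, RK7_4 and RK9_4, at 0.592 for SMC/Peri, 0.575 for endothelial nuclei and -0.346 for the proximal tubule. With the group means subtracted the values were 0.771, 0.715 and -0.575, and none passed (permutation p = 0.208, 0.212 and 0.293, adjusted 0.495, 0.495 and 0.512). The relation with the median UMIs of all nuclei did not pass by r (0.618, permutation p = 0.03, adjusted 0.0525) and passed by rho (0.706, permutation p = 0.0134, adjusted 0.0312). Its r was 0.430 without the 2 farthest rats, RK1_4 and RK7_4, and 0.249 with the group means subtracted (permutation p = 0.409, adjusted 0.573). Immune nuclei (r = -0.267), PTinj, the cluster of injured proximal tubule cells (r = 0.0432), and the number of nuclei (r = -0.407) had adjusted permutation p values of 0.470, 0.894 and 0.261. With the group means subtracted these r values became 0.224, 0.760 and -0.380 (permutation p = 0.798, 0.197 and 0.635, adjusted 0.798, 0.495 and 0.741). For PTinj the r was thus near that of SMC/Peri on this scale, and it did not pass either. Without the 2 farthest rats, RK16_4 and RK61_4, the r of PTinj was -0.324.

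Fib/Peri nuclei of the obese rats carried fewer UMIs than those of the lean rats. Median UMIs per Fib/Peri nucleus were 1830.5, 1510 and 1565.5 in the lean rats RK1_4, RK3_4 and RK5_4. In the vehicle-treated obese rats they were 693 in RK7_4, 1023 in RK9_4 and 1005.5 in RK16_4. Every obese rat lay below every lean rat. The means were 1635 ± 171 for Lean and 907 ± 186 for Obese (SD, n = 3), and the log2 difference was -0.87 (SE 0.27, limma adjusted p = 0.0194). Of the 24 clusters with enough nuclei in enough rats to be fitted, 4 passed in this contrast (16.7%), and the median difference over all 24 was -0.45 on the log2 scale, all 24 being below 0. The median over all nuclei of a rat was 1688 to 2914 UMIs in Lean and 783 to 1392 in Obese, and the part of library depth in the difference was not tested. The call was lost when RK1_4 (adjusted p = 0.0728), RK3_4 (0.0937) or RK7_4 (0.151) was left out. It was also lost when only nuclei with at most 1% mitochondrial UMIs were used, with a log2 difference of -0.79 (adjusted p = 0.117), and when the 2 groups were fitted alone (-0.87, adjusted p = 0.051).

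Expressed genes per nucleus followed the UMIs. The medians were 1286, 1079 and 1066.5 in the lean rats and 534, 711 and 780 in RK7_4, RK9_4 and RK16_4, again without overlap. The log2 difference was -0.77 (SE 0.24, limma adjusted p = 0.0109), and 5 of 24 clusters passed (20.8%). Without RK1_4 the adjusted p was 0.0537 and without RK7_4 it was 0.105. With at most 1% mitochondrial UMIs the difference was -0.63 (adjusted p = 0.107), and 0 of 23 clusters passed. Genes found per 100 UMIs were 70.1 ± 1.20 in Lean and 74.5 ± 4.51 in Obese (SD, n = 3, exact two-sided permutation test, p = 0.3). Members with at least 1000 UMIs made up 80.3% to 99.7% of the lean members and 22.7% to 53.7% of the obese ones.

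With neither drug did the UMIs or the genes of the members pass the threshold. With sGCact the median UMIs were 851, 976 and 907.5 in RK43_4, RK45_4 and RK46_4, a mean of 912 ± 62.6, and all 3 rats lay within the range of the vehicle-treated rats. With sGCstim they were 952.5, 1335 and 944 in RK57_4, RK58_4 and RK61_4, a mean of 1077 ± 223 (SD, n = 3), and only RK58_4 exceeded the vehicle-treated range. On the log2 scale sGCact minus vehicle was 0.03 (95% interval -0.52 to 0.58, limma adjusted p = 0.921), sGCstim minus vehicle was 0.25 (-0.30 to 0.80, adjusted p = 0.958) and sGCact minus sGCstim was -0.22 (-0.77 to 0.33, adjusted p = 0.778). In these contrasts 2 of 24 (8.33%), 0 of 24 (0%, with 1 below an unadjusted p of 0.05) and 1 of 24 clusters (4.17%) passed for UMIs. The same numbers of clusters passed for genes, 2 (8.33%), 0 (0%, with 3 below an unadjusted p of 0.05) and 1 (4.17%), and the log2 differences of the members were 0.13, 0.30 and -0.18 (adjusted p = 0.945, 0.971 and 0.813).

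Compared with the other clusters of the same rat, Fib/Peri nuclei were on the low side in UMIs. They ranked 5th to 9th from the lowest of 23 to 25 clusters in 11 rats and 15th in RK5_4. The log2 difference between the members and the median of the other clusters was -0.24 ± 0.32 in the lean rats, -0.63 ± 0.22 in the obese rats, -0.53 ± 0.33 with sGCact and -0.44 ± 0.19 with sGCstim (SD, n = 3). Obese minus Lean was then -0.39 (exact two-sided permutation test, p = 0.2), lower in 8 of 9 pairs of rats. Set against SMC/Peri alone, Obese minus Lean was -0.14 (exact p = 0.9). Such a test cannot give a p below 0.1 here, and neither difference reached that limit. SMC/Peri had median UMIs of 1659 ± 465 in Lean and 988 ± 209 in Obese (SD, n = 3), with a log2 difference of -0.73 (limma adjusted p = 0.105).

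**Figure D2:**
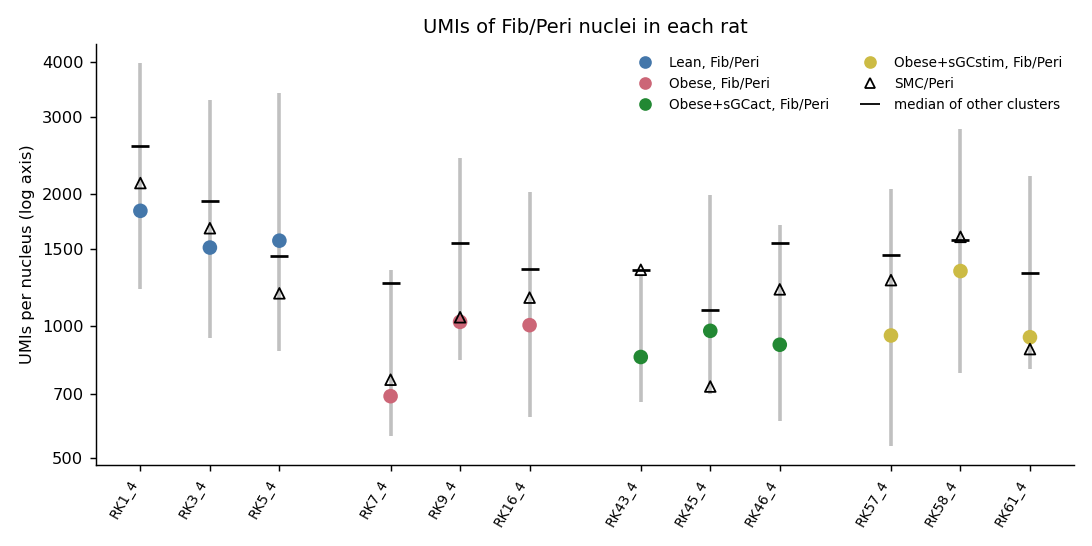
UMIs per nucleus in each rat on a log axis. Coloured points are the median of Fib/Peri nuclei with bars from the 10th to the 90th percentile, triangles are the median of SMC/Peri and short black lines the median of the other clusters. The 3 lean points, 1510 to 1830.5, lie above all points of the obese groups.

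The mitochondrial percentage of the members ranged widely between rats of the same group. Reads on mitochondrial genes in a nucleus come from transcripts carried over from the cytoplasm. The median percentage was 1.19%, 0.717% and 0.0522% in the lean rats and 0.526%, 1.66% and 1.93% in RK7_4, RK9_4 and RK16_4. It was 3.22%, 0.266% and 0.687% in RK43_4, RK45_4 and RK46_4 and 0.0534%, 0.105% and 3.71% in RK57_4, RK58_4 and RK61_4. All groups overlapped. On the scale of log2(percentage + 0.1), Obese minus Lean was 1.26 (SE 1.32, limma adjusted p = 0.803), sGCact minus vehicle -0.41 (adjusted p = 0.914), sGCstim minus vehicle -1.41 (adjusted p = 0.671) and sGCact minus sGCstim 1.00 (adjusted p = 0.706). Over the 24 clusters fitted, 0 (0%, with 3 below an unadjusted p of 0.05), 1 (4.17%), 0 (0%, with 2 below) and 1 (4.17%) passed. In 7 of 12 rats Fib/Peri was among the 7 clusters with the highest median percentage.

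Members with over 1% mitochondrial UMIs were a mitochondria-rich class of 2383 nuclei, 47.7% of all members, and they held fewer UMIs than the other 2618. They made up 9.43% of the members in RK57_4 and 88.5% in RK43_4, the lowest and the highest of the 12 rats. Their median UMIs were lower than those of the remaining members in 11 of 12 rats, for example 1519 compared with 2637.5 in RK1_4 and 852 compared with 1638.5 in RK61_4. In RK7_4 they were 696 and 688.5. Within every rat, UMIs and mitochondrial percentage were inversely ordered over the members, with Spearman's rho from -0.208 in RK7_4 to -0.766 in RK46_4. This is a description over nuclei of 1 library each, and the UMIs of a nucleus are the denominator of its percentage. Restricting all clusters to nuclei with at most 1% raised the Fib/Peri share in RK9_4 from 1.20% to 2.84% and lowered it in RK43_4 from 2.69% to 0.622%. The lean and obese shares then overlapped fully, at 2.14% to 2.77% and 1.65% to 2.84%.

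**Figure D3:**
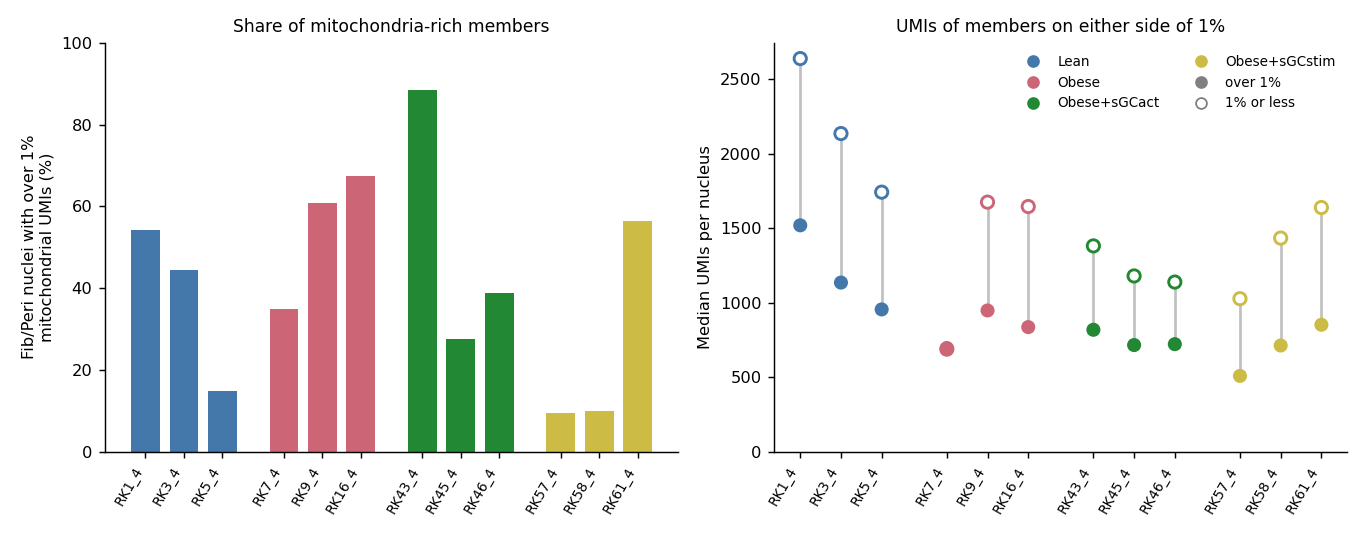
Left, percentage of Fib/Peri nuclei in each rat with over 1% mitochondrial UMIs, from 9.43% in RK57_4 to 88.5% in RK43_4. Right, median UMIs per nucleus of members over 1% (filled points) and at 1% or less (open points), with the filled points lower in 11 of 12 rats and the points of RK7_4 overlapping.

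The G2M score of the members was higher in the obese than in the lean rats. The S and G2M scores sum the expression of genes of DNA replication and of mitosis against control genes, have no true zero, and the gene lists behind them are not given in the sources used here. The mean G2M score was -0.0176, -0.0170 and -0.0220 in RK1_4, RK3_4 and RK5_4. It was 0.00257 in RK7_4, -0.00619 in RK9_4 and -0.00770 in RK16_4, so the groups did not overlap. The difference was 0.0151 (SE 0.0036, limma adjusted p = 0.0169), in a contrast in which 6 of 24 clusters passed (25%). The median difference over all 24 was 0.00485, and 19 of them were above 0. Fib/Peri ranked 2nd to 6th from the lowest score in the lean rats and 8th to 15th in the obese rats. The call was lost without RK5_4 (adjusted p = 0.0566) and without RK7_4 (0.0599).

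The difference depended on the range of UMIs compared. Over the members of each of the 12 rats the G2M score was inversely ordered with UMIs, with Spearman's rho from -0.0689 to -0.298, a weak order given as a description only. Among members with 800 to 1200 UMIs, a range that both groups fill, the mean G2M score was 0.000078, -0.00497 and -0.0186 in the lean rats (53, 138 and 139 nuclei) and -0.0176, 0.00187 and -0.0127 in RK7_4, RK9_4 and RK16_4 (29, 322 and 129 nuclei). The lean and the obese rats then overlapped fully, with a difference of -0.00162 (limma adjusted p = 0.967). This range was chosen after the data were seen. In the wider range of 1000 to 3000 UMIs the difference was 0.00339 (adjusted p = 0.876). There RK9_4 (-0.00918) and RK16_4 (-0.00753) lay above every lean rat (-0.0207 to -0.0132). RK7_4, with 36 nuclei in that range, lay below them at -0.0236. Members under 800 UMIs made up 66.9% of the members in RK7_4, 3.45% in RK9_4 and 31.4% in RK16_4, and 0%, 1.02% and 4.62% in RK1_4, RK3_4 and RK5_4. Under 800 UMIs the mean G2M score was 0.0132, 0.0128 and -0.00294 in RK7_4, RK9_4 and RK16_4, above the -0.0116 of RK5_4, the only lean rat with at least 10 such members. Above 2000 UMIs it was -0.0243, -0.0295 and -0.0295 in the lean rats, and -0.0364 in RK9_4 and 0.00185 in RK16_4 lay on either side of them.

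In the treated rats the G2M score of the members was lower than with vehicle, without passing the threshold. With sGCact it was -0.0128, -0.0133 and -0.0107 in RK43_4, RK45_4 and RK46_4, below all 3 vehicle-treated rats. With sGCstim it was -0.0196, -0.0119 and -0.00712 in RK57_4, RK58_4 and RK61_4, and RK61_4 lay within the vehicle-treated range. The differences were -0.00846 for sGCact minus vehicle (limma adjusted p = 0.151), -0.00908 for sGCstim minus vehicle (adjusted p = 0.228) and 0.000619 for sGCact minus sGCstim (adjusted p = 0.939). In each of these 3 contrasts 0 of 24 clusters passed (0%), with 7, 3 and 4 below an unadjusted p of 0.05. The difference was below 0 in 19, 14 and 19 of the 24 clusters, with medians of -0.00540, -0.000617 and -0.00478. A lower score with sGCact was therefore not particular to Fib/Peri. Among members with 800 to 1200 UMIs the first 2 differences were -0.00121 and 0.000491 (exact two-sided permutation test, p = 0.9 and 1).

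The S score was less clear. Its mean was -0.0139 ± 0.00414 in Lean, -0.00776 ± 0.00243 in Obese, -0.00651 ± 0.00158 with sGCact and -0.00900 ± 0.000370 with sGCstim (SD, n = 3). Obese minus Lean was 0.00619 (SE 0.0023, limma adjusted p = 0.210), with all obese rats above all lean rats, and sGCact minus vehicle, sGCstim minus vehicle and sGCact minus sGCstim were 0.00125, -0.00124 and 0.00249 (adjusted p = 0.791, 0.651 and 0.510). In none of the 4 contrasts did limma call a cluster (0 of 24, 0%), with 3, 3, 5 and 2 below an unadjusted p of 0.05. Fib/Peri ranked 1st to 5th from the lowest S score of the clusters in all 12 rats. The other stroma cluster shared this low score, with a mean over rats of -0.0111 in SMC/Peri and -0.00930 in Fib/Peri.

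Phase calls, which the authors made from these scores, placed 52.4% ± 4.54 of the members in S or G2M in Lean, 59.5% ± 2.31 in Obese, 59.5% ± 0.741 with sGCact and 59.9% ± 4.56 with sGCstim (SD, n = 3). The obese values lay above the lean values without overlap (p = 0.1 by exact permutation, two-sided, which is the limit of this design). Among members with 1000 to 3000 UMIs the difference turned from 7.06 to -1.74 percentage points (exact p = 0.9). In that range RK7_4 was lowest, at 38.9% of 36 nuclei, while RK9_4 and RK16_4 were at 60.4% and 59.1%. The lean rats RK1_4, RK3_4 and RK5_4 were at 60.3%, 54.6% and 48.6%. Over all members, calls of S alone had means of 27.9% in Lean, 26.2% in Obese, 30.9% with sGCact and 31.2% with sGCstim. Calls of G2M alone had means of 24.5%, 33.3%, 28.6% and 28.7% in the same order. The exact permutation p for S and G2M was 0.5 and 0.1 for Obese minus Lean. It was 0.2 and 0.1 for sGCact minus vehicle, and 0.1 and 0.3 for sGCstim minus vehicle. Calls of this kind are not counts of dividing cells, and the scores above give no more than a relative order.

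**Figure D4:**
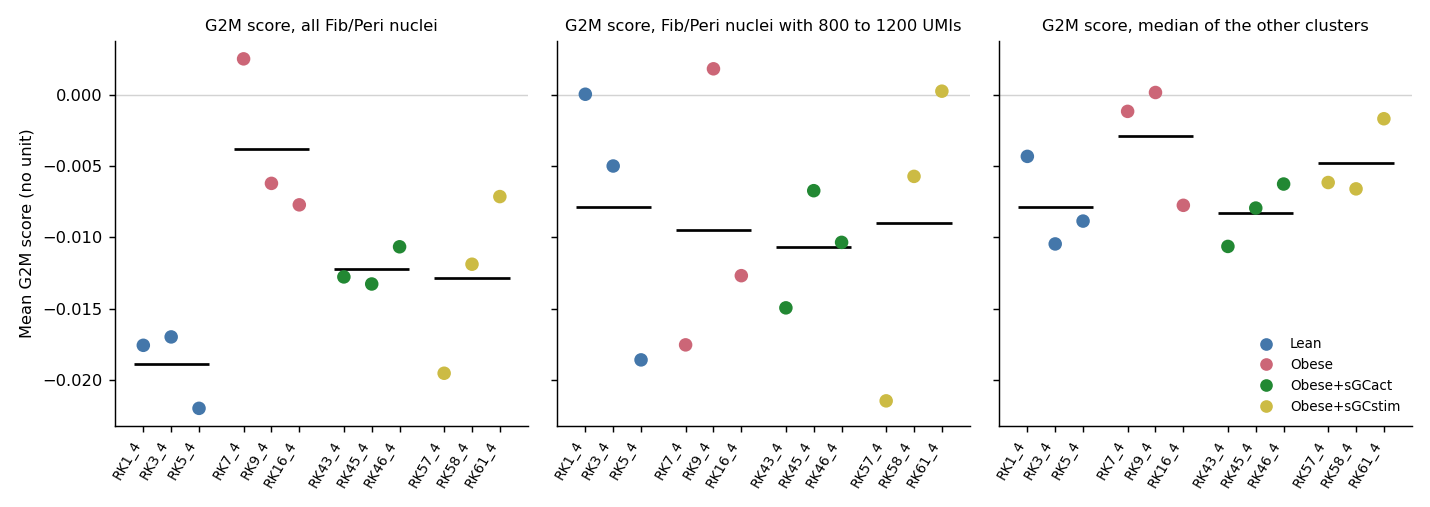
Mean G2M score in each rat for all Fib/Peri nuclei (left), for those with 800 to 1200 UMIs (middle) and as the median of the other clusters (right). Points are rats and black lines group means. The obese points lie above the lean points on the left and are mixed with them in the middle.

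In the 2-dimensional map of all nuclei most members lay in 1 island, and 73 of the 5001 were more than 4 map units from the median position of the members, 16 of them in RK16_4, 14 in RK5_4 and 12 in RK58_4. Of the 15 nearest nuclei of a member, 94.2% were also Fib/Peri, and with the nearest nuclei taken only from other rats it was 93.9%. The largest other shares were 1.64% for DTL(Shroom3+), a thin descending limb cluster, 1.40% for PTinj, 0.511% for SMC/Peri, 0.371% for PTnov1 and 0.303% for PST(S2), clusters of the proximal tubule in the last 2 cases. The other stroma cluster therefore did not hold the largest of these shares. The shares were not corrected for cluster size, and DTL(Shroom3+) held 3211 nuclei and PTinj 5852, compared with 811 in SMC/Peri. They therefore do not rank the clusters by nearness. The medians of Fib/Peri and SMC/Peri were 4.51 map units apart. The map was built from the same expression values as the clusters, so these shares describe the map and test nothing. There were 172 members with fewer than 50% Fib/Peri neighbours, and DTL(Shroom3+) led among the neighbours of 46 of them, PTinj of 23 and SMC/Peri of 14. These edge members were 0.153% of the members in RK61_4 and 9.09% in RK58_4.

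Members were not evenly spread by rat inside the island. In RK61_4, which supplied 13.1% of all members, 26.3% of the neighbours of a member came from the same rat, and in RK9_4 the values were 10.4% and 14.6%. Mitochondria-rich members lay on both sides of the island and were more frequent on its left side. Left of -3.5 on the first map coordinate, a line drawn after the map was seen, lay 1405 members (28.1%), of which 68.5% had over 1% mitochondrial UMIs, compared with 39.5% of the rest. The rest held 59.6% of all mitochondria-rich members. The median UMIs were 1016 on the left and 1210.5 in the rest. In RK61_4 the split was sharpest, since 99.0% of the 314 members on the left and 17.0% of the rest were over 1%. In 4 rats it was small or went the other way, with 67.8% on the left and 67.1% in the rest in RK16_4, 93.8% and 88.0% in RK43_4, 18.4% and 28.7% in RK45_4 and 36.6% and 39.1% in RK46_4. The lean rats had 36.0% to 36.7% of their members on the left, the vehicle-treated obese rats 19.6% to 28.5%, the sGCact rats 8.39% to 16.5% and the sGCstim rats 22.7% to 47.9%. The part of RNA carried over from the cytoplasm in this pattern was not tested.

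**Figure D5:**
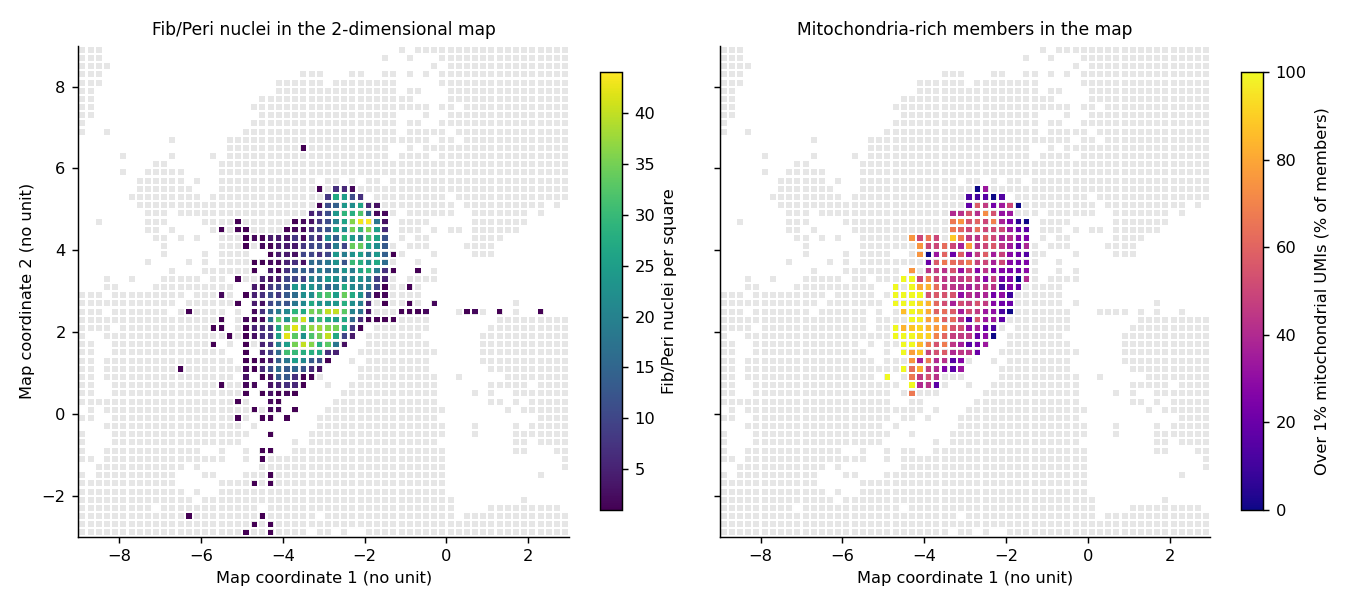
The region of the 2-dimensional map around the Fib/Peri nuclei, in squares of the authors' map coordinates, which have no unit. Left, number of Fib/Peri nuclei per square. Right, percentage of them with over 1% mitochondrial UMIs in squares with at least 3 members. Grey squares hold nuclei of any cluster, and squares with a high percentage are more frequent on the left side but also lie elsewhere in the island.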

How the data were processed

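Nuclei were isolated from snap-frozen kidney of 12 rats and sequenced by the authors with a droplet 3′ kit with UMIs. Per the labels, reads were processed with Cell Ranger 6 and Seurat on rn6, while the paper lists an earlier version of Cell Ranger. Per the methods of the study, the alignment included introns, ambient RNA was corrected, doublets were removed, nuclei with extreme gene numbers or a high mitochondrial percentage were left out, and the merged rats were corrected with Harmony and clustered. Clustering was done with UMIs regressed out, which can shift nuclei of low depth between clusters. The deposited UMIs are counts per nucleus, not normalized, after ambient correction. The number of expressed genes and the map coordinates are other values deposited by the authors. The mitochondrial value was deposited as a percent of UMIs, and the S and G2M scores were deposited as scores. Rat and group names were taken from the table, in which the group names match the sample titles, while rat names match no replicate number. The number of value columns left unused was 0.

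Each value was summarised per rat and cluster with at least 10 nuclei. limma 3.58.1 (R 4.3.3) was fitted over all clusters and 12 rats for 4 contrasts, with Benjamini-Hochberg adjustment and a threshold of 0.05, on log odds of shares (0.5 nuclei added to the cluster and 1 to the total), log2 medians of UMIs and genes, log2(percentage + 0.1) and mean scores. The fits were tested on simulated data. edgeR 4.0.16 was an alternative for shares. Single values were compared by exact two-sided permutation tests over all splits of the rats, and relations by 100000 permutations. Wilson intervals, map neighbours and Spearman's rho over the members of a rat were computed with scipy 1.17.1. Each rat was 1 replicate. The members and lists were chosen with earlier results of these data known. Fib/Peri, SMC/Peri, the clusters of the relations and the 5 largest map-neighbour clusters were named. Alternatives tried are other scalings, denominators, UMI and mitochondrial limits, and each rat left out.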

Additional observations from a re-analysis of the deposited data

How the results depend on the processing

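Of the 514 alternative values computed for the comparisons above, 455 kept the direction and the side of the threshold or moved by less than the spread between rats. This count is no measure of robustness. It includes fits without a rat of neither compared group, in which the difference cannot change. It also includes differences that passed the threshold in neither setting. No paired analysis was possible because the rat names carry no replicate number and no source used here pairs rats across groups. The groups held different rats, and a shared replicate number alone would not make them pairs. The cause of the changes below was not tested. A fit without 1 rat differs both in the rat removed and in the smaller number of rats.

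Share of all nuclei, in log odds unless stated. Obese minus Lean turned to 0.15 after the centred log-ratio, 0.40 without proximal tubule nuclei and 0.26 in edgeR with TMM (log2), none past the threshold. sGCact minus vehicle turned to -0.27, -0.45 and -0.0715 in the same order, and sGCstim minus vehicle to -0.31, -0.49 and -0.25. With at least 1000 UMIs the differences were -0.12 for sGCact minus vehicle, -0.0269 for sGCstim minus vehicle and -0.0897 for sGCact minus sGCstim. With at most 1% mitochondrial UMIs they were -0.49, -0.0468 and -0.45. Leaving out each rat gave -0.88 to -0.40 for Obese minus Lean, -0.0301 to 0.45 for sGCstim minus vehicle and -0.0265 to 0.23 for sGCact minus sGCstim. The Fib/Peri share of the stroma, sGCact minus sGCstim, was -9.24 percentage points with at most 1% mitochondrial UMIs, where RK43_4 fell to 59.5%.

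UMIs and genes, in log2. With at most 1% mitochondrial UMIs the Obese minus Lean difference lost its call for UMIs (-0.79) and genes (-0.63), and with the 2 groups fitted alone it lost it for UMIs (-0.87, limma adjusted p = 0.051). Leaving out each rat gave -0.97 to -0.68 for UMIs and -0.89 to -0.61 for genes. sGCact minus vehicle for UMIs turned to -0.0343 with means and -0.0108 with at most 1% mitochondrial UMIs, and ranged from -0.16 to 0.12 over the rats left out, and for genes from -0.0349 to 0.24. For the mitochondrial percentage it ranged from -1.28 to 0.31. Against SMC/Peri alone, sGCstim minus vehicle for UMIs was -0.0732.

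Scores. For G2M, Obese minus Lean lost its call with medians (0.0109), 1000 to 3000 UMIs (0.00339), at most 1% mitochondrial UMIs (0.0133) and the median of the rat's clusters subtracted (0.00885), and turned to -0.00162 with 800 to 1200 UMIs. The limits of 800 to 1200 UMIs, the mitochondrial limit for scores and this centring were chosen after seeing the data. Leaving out each rat gave 0.0119 to 0.0171. Over 800 to 1200 UMIs sGCstim minus vehicle turned to 0.000491. sGCact minus sGCstim turned to -0.00254 with medians, -0.000781 and -0.00170 with 1000 to 3000 and 800 to 1200 UMIs and -0.00199 with at most 1% mitochondrial UMIs, and ranged from -0.00273 to 0.00348 over the rats left out. For S, Obese minus Lean turned to -0.00135 with medians and passed with at most 1% mitochondrial UMIs (0.00900, limma adjusted p = 0.0492). sGCact minus vehicle turned to -0.000212 with 1000 to 3000 UMIs and -0.00193 with at most 1% mitochondrial UMIs, and ranged from -0.000138 to 0.00212. sGCstim minus vehicle turned to 0.00124 with medians, 0.00180 with 1000 to 3000 UMIs and 0.00132 with 800 to 1200 UMIs. sGCact minus sGCstim turned to -0.00202 with 1000 to 3000 UMIs. The share called S or G2M, Obese minus Lean, was -1.74 percentage points with 1000 to 3000 UMIs.

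With 3 rats per group an exact test cannot go below 0.1. Depth limits the comparison of scores outside 800 to 2000 UMIs, since 28 lean members hold under 800 UMIs and 2 members of RK7_4 hold over 2000.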
